A study of Rattus norvegicus with 35 samples.

Results

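The cytosolic ribosomal protein genes were read from whole-genome arrays of rat olfactory epithelium, the sheet of the nasal cavity that holds the olfactory sensory neurons, their supporting cells and the dividing basal cells that replace them. Members were the non-control probes whose gene name in the scanner files began with Rpl or Rps and a digit, or with Rplp, and not with Rps6k, which names kinases. This rule used names and no measured value. It gave 110 of 41012 probes and 74 gene names, of which 42 name proteins of the large subunit, 30 proteins of the small subunit and 2 the acidic proteins of the stalk. Of these probes, 108 of 73 genes passed the filter on dim spots, and all counts below are over these 108. The probe of Rps26 was above background on 0 arrays and 1 Rpl28 probe on 8 arrays, so neither was tested. The genes Rplp0 and Rpl38 had no probe under those names.

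All rats were of the Brown Norway strain, and no genotype or treatment other than age was given. The newborns were pups of 3 to 5 days, of unknown sex, from 4 litters: 4 pups from L1 and 5 each from L2, L3 and L4. The 4 adults were males of 9 weeks, and the 4 old rats were males of 22 months. One array was made for each pup, and for each adult and old rat an array was made from each nostril, giving 35 arrays. Age and known sex could not be separated. A bulk sample does not tell fewer cells of a type from less RNA per cell.

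The ribosome is built from ribosomal RNA and a nearly fixed set of proteins, each present in about the same number of copies. The small subunit reads the messenger RNA and the large subunit joins amino acids. The genes of these proteins are transcribed at high rates in all cells, most strongly in cells that grow and divide. Their messenger RNAs commonly begin with a C followed by a run of pyrimidines, the 5′ terminal oligopyrimidine tract, through which growth signals acting on the mTOR kinase regulate their translation. The arrays measure messenger RNA and not its translation.

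That start is shown here for 8 genes because it is the feature these messenger RNAs are best known for, together with 3 genes whose annotated start lacks it. Each line holds the 10 bases before the RefSeq start and the 20 bases from it on, read in the sense direction in the GRCr8 build, with the unbroken C and T run at the start base in capitals. Rpl10 lies at chrX:157205840-157205869 on the plus strand, Rpl31 at chr9:49143101-49143130 on the plus strand and Rps2 at chr10:14251838-14251867 on the plus strand.
Rpl10: gtgggagcgtCTCTTTTCCTCTggcgcggt
Rpl31: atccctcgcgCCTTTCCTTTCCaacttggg
Rpl37: ggcgtactttCTCTTCCggtctctttggcc
Rpl39: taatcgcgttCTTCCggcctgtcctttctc
Rplp1: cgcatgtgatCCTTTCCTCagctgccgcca
Rpl14: ggccctctccCTTCTCgctgagcgccgcca
Rps7: agagctgtgtCTCTTTCTaagccggcactc
Rps18: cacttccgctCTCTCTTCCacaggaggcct
Rps2: tctttttcttcgggaaaacacgtgagtctg
Rps3: ttcagcggcgcgcggcagcaagatggcggt
Rpl3l: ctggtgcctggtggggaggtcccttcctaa

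A start window was matched by symbol for 59 of the 74 genes, which gave 60 windows. A C at the start base followed by 4 bases that were C or T stood in 23 of 60 windows (38.3%), against 2.63% of 33469 windows of all genes. Such a run began within 10 bases of the annotated start in 45 of the 60 ribosomal protein windows and in 28.9% of all windows. The letters CTTCCG, part of the site of ETS-family factors, stood on either strand of the 300 bases around the start in 53.3% of these windows and in 16.6% of all. TATAAA in the 40 bases before the start was rare, at 3.33% and 1.72%. These matches are descriptions of letters in RefSeq windows. The median newborn minus old difference was 0.49 for probes of genes with the run at the start base, 0.48 without it and 0.47 where no window was found.

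Levels are given as log2 of the processed intensity over the median intensity of the same array, so a level of 0 is that of the median probe. Differences between groups are differences of group means on this scale. The newborn mean is the mean of the 4 litter means, and each adult or old rat counts once, by the mean of both nostrils. A probe was called at an adjusted p under 0.01 from limma over 23764 probes. Each litter was a group of its own in the fit. The SEs and p-values of newborn comparisons therefore do not hold the spread between litters.

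Most of these probes were bright enough to be read from the scanner's second, low-gain scan, whose values the software scales up and puts in place of the high-gain reading. Over all arrays 73.1% of their values came from that scan, against 1.93% of the values of all probes. Of the 108 probes tested, 63 were read from it on every array and 16 on none. Saturated spots were few: 6 values, all in adults, 5 of Rpl14 and 1 of Rps6, among 96 saturated values of all probes. The median intensity of an array ran from 82.4 to 164 in adults, from 42.1 to 87.8 in newborns and from 37.2 to 55.3 in old rats. The adult arrays lay on 2 slides and 2 scan days of their own with an earlier software release, so adult age and scan day cannot be told apart. The only pair of age groups scanned on 1 day was L1 and the old rats. Another scaling, quantile normalization, changed the adult comparisons most, and its values are given with them where they move a count or a difference by much.

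Ribosomal protein messenger RNAs were higher in newborn than in old epithelium at nearly every probe, by a modest amount. Of 108 probes, 93 were called higher and 1 lower in newborns against old rats, where 28.3% of all probes tested were called higher and 31.4% lower. The median difference was 0.47 for the ribosomal protein probes and −0.03 over all probes. The median level over these probes was 9.82 in the lowest newborn, 10.15 in the median newborn and 10.31 in the highest, and between 9.51 and 9.63 in the old rats, so that no newborn overlapped an old rat. Both subunits took part: 53 of 62 large-subunit probes and 36 of 42 small-subunit probes were called higher. The called differences ran from 0.21 to 1.36 in the large subunit and from 0.27 to 1.44 in the small subunit. Every newborn was above every old rat at 65 probes and below at 0, where 14.2% and 17.3% of all probes were so. With 1 probe per gene, 65 of 73 genes were called higher and 0 lower. Quantile normalization gave 94 higher and 1 lower, where 28.4% and 34.1% of all probes were called so, with a median of 0.42.

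**Figure D1:**
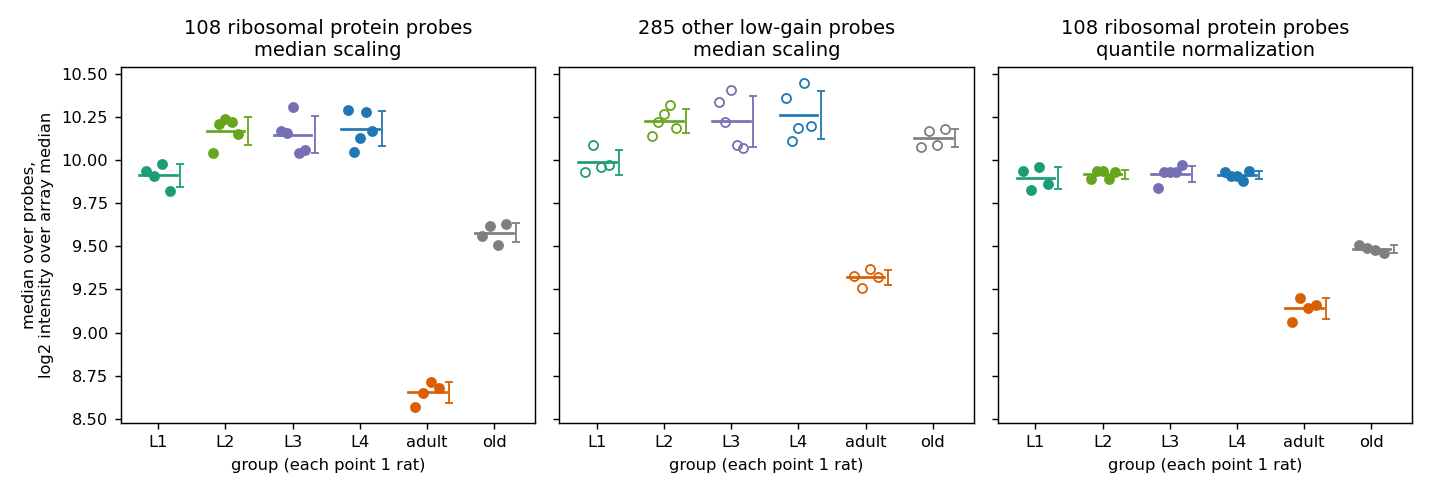
Median level over probes in each rat (points; log2 of intensity over the array median, each point 1 rat) by litter, adult and old group, with the group mean (line) and SD (whiskers), for the 108 ribosomal protein probes, for 285 other probes read from the low-gain scan on every array, and for the ribosomal protein probes after quantile normalization. In the first panel the adults lie between 8.57 and 8.71, the old rats between 9.51 and 9.63, the L1 pups between 9.82 and 9.98 and the other pups at 10.04 or above; among the other low-gain probes the old rats, at 10.08 to 10.18, lie within the newborn range.

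The comparison of L1 with the old rats, made within 1 scan day, gave the same direction with a smaller difference. There 44 probes were called higher and 0 lower, where 17.8% of all probes were called higher and 30.5% lower, and the median difference was 0.25 against −0.14 over all probes. Every L1 pup was above every old rat at 71 probes and below at 2, where 21.0% and 35.7% of all probes were so. Quantile normalization raised the count to 83, against 22.9% of all probes, and the median to 0.35. L1 and old arrays lay on different slides of that day, and with the slide as a random block the count was 29, against 13.6% of all probes.

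Among small-subunit proteins, Rps2, which sits at the entry of the messenger RNA channel, showed one of the larger differences. The probe at chr10:13977129-13977188 on the plus strand (build rn3, as all probe positions here) read 9.83, 10.41 and 10.76 in the lowest, median and highest newborn, 8.21, 8.22, 7.80 and 8.06 in the adults and 9.31, 9.34, 9.32 and 9.31 in the old rats. The 3 ages did not overlap. Newborns were 0.99 ± 0.10 (SE) above old rats (limma, adjusted p = 3.3e-09) and 2.24 ± 0.10 above adults (limma, adjusted p = 7.8e-16), or 1.58 above adults after quantile normalization. Within the shared scan day L1 was 0.61 ± 0.13 above the old rats (limma, adjusted p = 0.0002). The other 3 Rps2 probes gave 0.76, 0.95 and 0.76 for newborn minus old.

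Rps20, a protein of the head of the small subunit, ran from 9.17 over 9.47 to 9.75 in newborns at chr5:162092707-162092766. Its adult levels were 6.90, 7.08, 7.3 and 7.13 and its old levels 8.46, 8.63, 8.72 and 8.66. Again no 2 ages overlapped. The newborn minus old difference was 0.87 ± 0.07 (limma, adjusted p = 2.8e-10), the newborn minus adult difference 2.39 ± 0.07 (limma, adjusted p = 3.7e-18; 1.85 after quantile normalization) and the L1 minus old difference 0.68 ± 0.10 (limma, adjusted p = 1.8e-06). Rps12 at its first probe and Rps21 were also among the small-subunit genes called in L1 alone, with L1 minus old differences of 0.53 and 0.37 and newborn minus old differences of 0.56 and 0.93. Rps19, required for maturation of the small subunit and mutated in Diamond-Blackfan anaemia, was 0.73 ± 0.06 higher in newborns than in old rats and 0.59 ± 0.08 higher in L1.

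In the large subunit, Rpl31 and Rpl39 lie at the tunnel through which the new peptide leaves. Rpl31 at chr9:38441147-38443039, a probe that crosses an intron, read 9.74, 10.37 and 10.66 in the lowest, median and highest newborn, 8.30, 8.44, 8.50 and 8.51 in the adults and 9.16, 9.26, 9.27 and 9.26 in the old rats. Rpl39 at chrX:7833366-7833425 read 10.39, 10.72 and 11.00 in newborns, 8.86, 9.00, 9.04 and 9.11 in adults and 9.62, 9.78, 9.82 and 9.74 in old rats. For both genes adults were lowest, old rats in between and newborns highest, with no overlap. Newborn minus old differences were 1.06 ± 0.07 for Rpl31 and 0.97 ± 0.08 for Rpl39, and the L1 minus old differences 0.65 and 0.78. Rpl15 was called at both of its probes: the bright one was 0.59 ± 0.07 and the dim one 1.09 ± 0.08 higher in newborns than in old rats, with L1 minus old differences of 0.41 and 0.92.

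The pair of stalk proteins, which recruit elongation factors to the ribosome, moved alike. Rplp1 read 11.84, 12.13 and 12.51 in the lowest, median and highest newborn, 11.58, 11.76, 11.70 and 11.69 in old rats and 10.77, 10.78, 10.90 and 11.03 in adults. Rplp2 read 9.94, 10.37 and 10.76 in newborns, 9.82, 9.79, 9.79 and 9.81 in old rats and 8.72, 8.75, 8.93 and 8.97 in adults. No newborn overlapped an old rat and no old rat an adult. Both were called higher in newborns than in old rats, by 0.47 ± 0.09 and 0.57 ± 0.08, and neither in L1 alone, where the differences were 0.24 ± 0.11 and 0.28 ± 0.10.

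The increase over old rats was not shown by every gene. The probes not called in newborns against old rats included 1 each of Rpl23a, Rps27, Rpl4, Rpl37a, Rps10, Rpl13a, Rpl8, Rpl7, Rpl18 and Rpl10. Their differences lay between 0.01 and 0.36, and another probe of Rps10, Rpl18 and Rpl10 was called. Rpl10, which joins the large subunit late and completes its catalytic centre, read 10.78, 10.91 and 11.20 in the lowest, median and highest newborn and 10.90, 11.01, 10.83 and 10.99 in old rats at chrX:160413361-160413420. The groups overlapped, and the difference was 0.01 ± 0.07 (limma, adjusted p = 0.91). In adults the same probe read 9.29, 9.34, 9.28 and 9.37, below every other rat. Rps3, which lines the messenger RNA entry, was called but by 0.27 ± 0.07, and its old levels, 10.64, 10.70, 10.54 and 10.67, met the lowest newborn at 10.68.

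Adults were lower than both other ages at most of these probes. In newborns against adults 103 probes were called higher and 1 lower, with a median of 1.28, where 40.0% of all probes were called higher, 26.3% lower, and the median was 0.16. In adults against old rats 85 were called lower and 4 higher, with a median of −0.74, where 31.9% of all probes were called lower, 15.7% higher, and the median was −0.19. The comparisons share the adult, newborn and old rats and are not independent of one another. Every adult was below every newborn at 91 probes and above at 1, where 24.3% and 14.9% of all probes were so, and below every old rat at 88 and above at 6, where 38.7% and 18.6% were so. By subunit, 60 of 62 large-subunit and 39 of 42 small-subunit probes were higher in newborns than in adults, and 50 and 33 were lower in adults than in old rats.

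**Figure D2:**
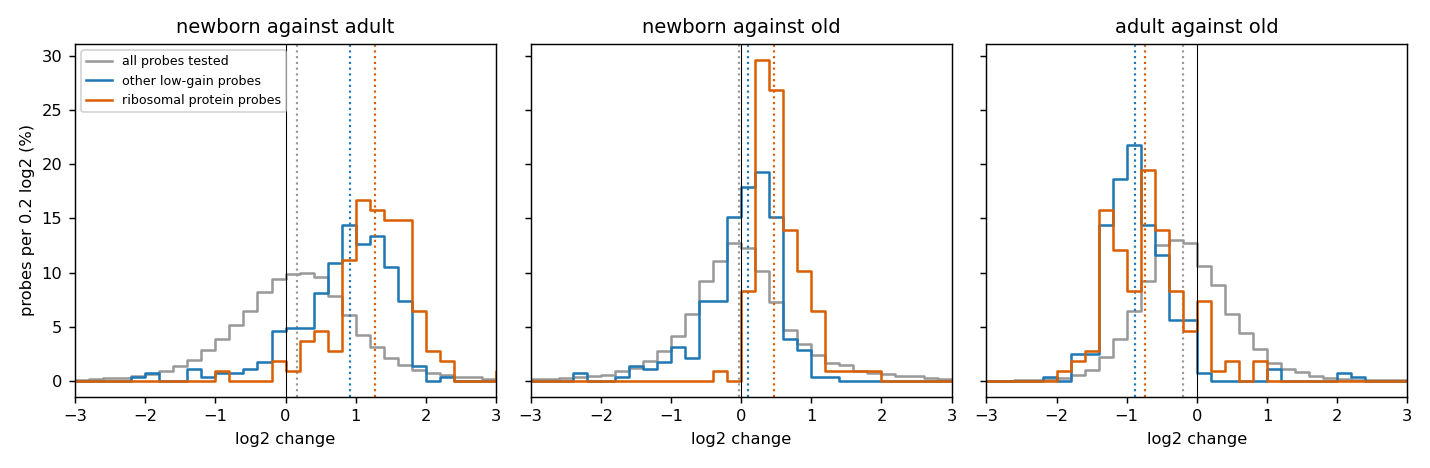
Share of probes (%, per step of 0.2) by log2 difference in 3 comparisons, for the ribosomal protein probes, the other probes of the low-gain scan and all probes tested, with medians as dotted lines; Rpl10l, at 3.05 in newborn minus adult, lies beyond the axis. The ribosomal protein medians are 1.28, 0.47 and −0.74, those of the other low-gain probes 0.92, 0.10 and −0.88, and those of all probes 0.16, −0.03 and −0.19.

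The adult differences moved with how the spots were read. The 285 other probes that were read from the low-gain scan on every array also were lower in adults, with 250 called lower and 6 higher against old rats and a median of −0.88. For the 63 ribosomal protein probes read so on every array the counts were 61 lower and 0 higher and the median −0.94, whereas for the 16 read so on none they were 3 and 3 and the median was −0.02. After quantile normalization 45 of the 108 were lower and 20 higher in adults against old rats, where 23.6% and 22.1% of all probes were, with a median of −0.14, while the median of all probes moved from −0.19 to −0.04 in that comparison and from 0.16 to −0.01 in newborn minus adult.

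Newborns stayed above adults after quantile normalization and at the high-gain probes, by less. The median newborn minus adult difference was 0.65 after quantile normalization, with 91 probes called higher and 3 lower where 32.4% and 34.5% of all probes were, 1.46 for the 63 probes of the low-gain scan, and 0.84 for the 16 probes of the high-gain scan, with 12 higher and 1 lower. For newborn minus old the other low-gain probes had a median of 0.10, with 110 called higher and 63 lower, and for L1 minus old −0.07, with 52 higher and 76 lower. The corresponding ribosomal protein probes had 0.45, with 57 higher and 0 lower, and 0.26, with 29 higher and 0 lower. The part of the scan in the adult differences was not tested.

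**Figure D3:**
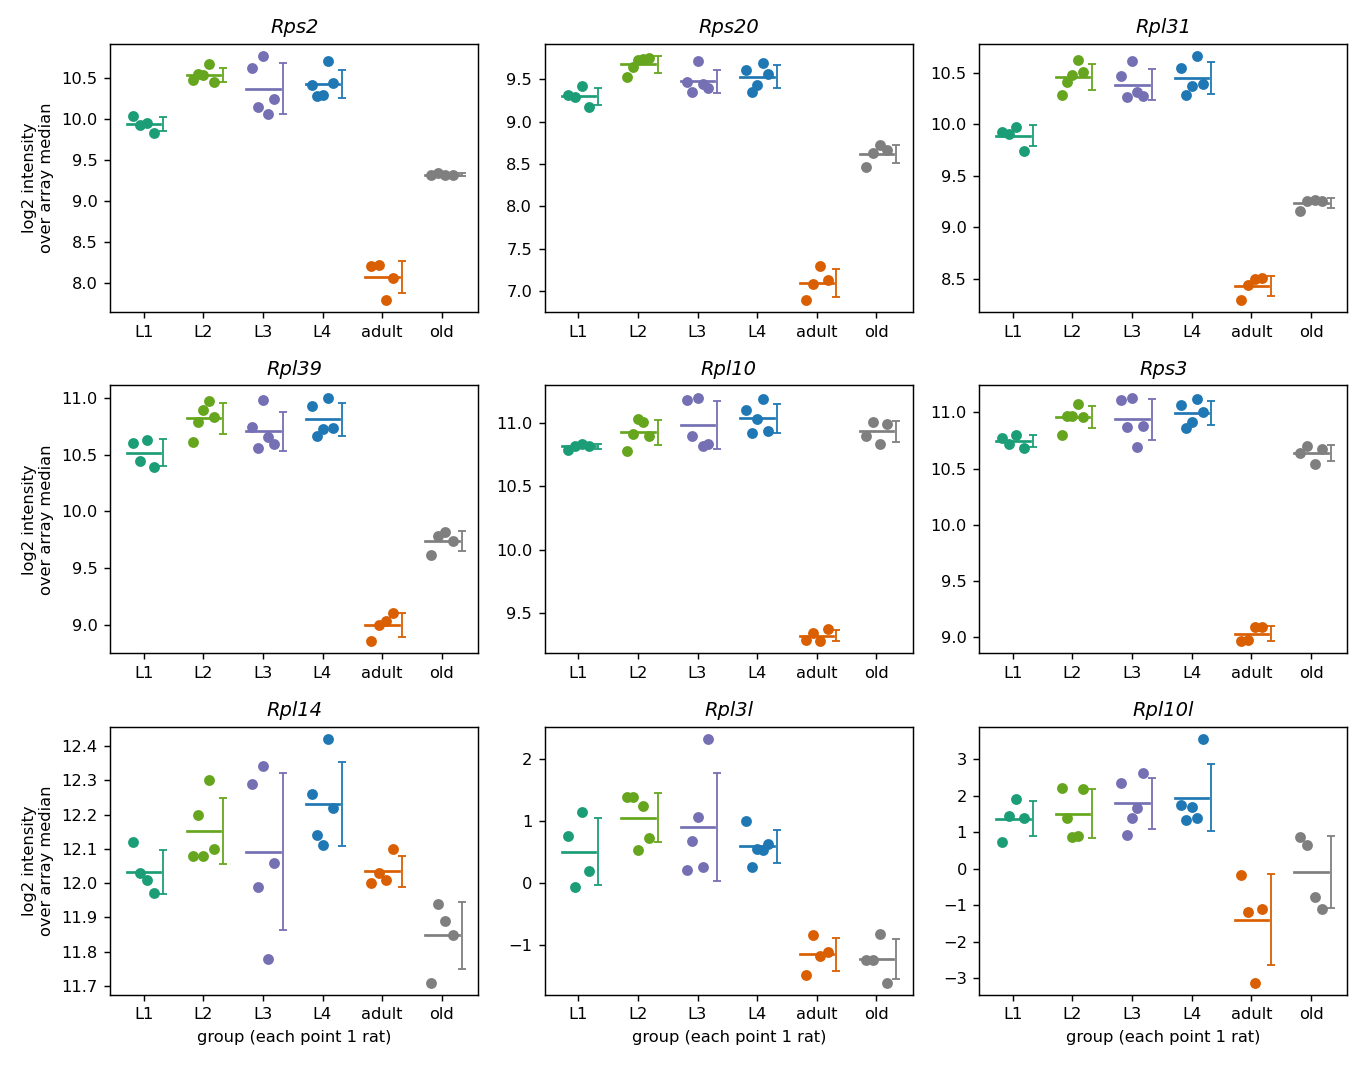
Level of 9 named genes in each rat (points) with group means (lines) and SD (whiskers), in log2 of intensity over the array median, 1 panel per gene. Rps2, Rps20, Rpl31 and Rpl39 separate the 3 ages, Rpl10 and Rps3 are low in adults, Rpl14 has newborns that overlap both other ages, and Rpl3l and Rpl10l are higher in newborns.

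The genes that fell most in adults against old rats were Rpl10, Rps3, Rpl5, Rps20, Rpl7a, Rpl18, Rpl37 and Rps2, by 1.80 to 1.35 at their most changed probe. Rpl5, which with Rpl11 carries the 5S ribosomal RNA into the large subunit and can bind Mdm2, read 8.62, 9.03 and 9.31 in the lowest, median and highest newborn, 7.02, 7.09, 7.14 and 7.24 in adults and 8.60, 8.70, 8.61 and 8.68 in old rats at chr14:2402608-2402753. The adult minus old difference was −1.52 ± 0.09 (limma, adjusted p = 1.5e-12) and stayed at −1.07 after quantile normalization. Rpl11 fell by 0.77, which became −0.08 and was not called after quantile normalization. Rpl10, at the probe first described, and Rps3 kept differences of −0.95 and −0.98 under that scaling. Rpl39, Rps14, Rps18 and Rps24 fell by 0.74, 0.79, 0.74 and 0.74 on the median scale, while after quantile normalization their values were −0.12, −0.12, −0.06 and −0.13, and with normexp background correction as well those of Rps18 and Rps24 were 0.01 and 0.13. Among the 4 probes called higher in adults, those of Rpl34, Rpl35a and Rpl13 showed 0.84, 0.46 and 0.46.

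Rpl14 was called in neither adult comparison. It read 11.78, 12.11 and 12.42 in the lowest, median and highest newborn, 12.00, 12.03, 12.01 and 12.10 in the adults and 11.71, 11.94, 11.89 and 11.85 in the old rats. Its spot was saturated on 5 of 8 adult arrays and on 0 others, so the adult levels are lower bounds on those arrays. No difference from adults was called (newborn minus adult 0.09, limma, adjusted p = 0.26), and after quantile normalization the difference was −0.24. Rps6, the substrate of the S6 kinases, was saturated on 1 adult array. It was called lower in adults than in newborns by a newborn minus adult difference of 0.81 ± 0.09, or 0.32 after quantile normalization, and higher in newborns than in old rats by 0.41 ± 0.09. Its adult minus old difference was −0.39 on the median scale and 0.12 after quantile normalization.

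Both paralogues on the array were higher in newborns than in either other age. Rpl3l is the form of Rpl3 found in striated muscle, and its gene lies near Rps2 on chromosome 10. Its levels were −0.06, 0.68 and 2.33 in the lowest, median and highest newborn, −1.47, −0.83, −1.17 and −1.10 in adults and −1.23, −1.24, −0.81 and −1.60 in old rats. All newborns were above all adult and old rats. The difference from old rats was 1.99 ± 0.26 (limma, adjusted p = 3.6e-07), that of L1 alone 1.74 ± 0.34 (limma, adjusted p = 0.0001), and adults and old rats were not called different. Of 12 markers of skeletal muscle on the array, 6 were tested. Newborns were called higher than adults at 6 of 6, where 40.0% of all probes were, and than old rats at 4 of 6, where 28.3% were. Summed levels over the array median were 61.5 to 946 in newborns, 18.3 to 32.9 in adults and 61.2 to 88.7 in old rats. These sums separated adults from old rats, and the lowest newborn lay within the range of the old rats. The single markers varied: newborn minus old ran from 0.02 for Tnnc2 to 6.84 for Myh3. Adults were called lower than old rats at 2 of 6 and higher at 0, where 31.9% and 15.7% of all probes were. The part of muscle in the Rpl3l difference was not tested.

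Rpl10l, an intronless relative of Rpl10, read 0.73, 1.45 and 3.55 in the lowest, median and highest newborn, −0.17, −1.18, −3.12 and −1.11 in adults and 0.86, 0.65, −0.78 and −1.10 in old rats. It was above background on 6 of 8 adult arrays and on all others. Newborns were 3.05 ± 0.44 above adults (limma, adjusted p = 1.2e-06; 2.47 without the adult at −3.12) and 1.74 ± 0.44 above old rats (limma, adjusted p = 0.0012), with an overlap between the lowest newborn and the highest old rat. The probe shares a stretch with the Rpl10 probe, shown in capitals because it bears on which gene is read: 36 of 41 overlapping bases were the same (87.8%) and 5 differed. The Rpl10l probe lies at chr6:87933847-87933906 and the Rpl10 probe at chrX:160413361-160413420, both on the minus strand.
Rpl10l: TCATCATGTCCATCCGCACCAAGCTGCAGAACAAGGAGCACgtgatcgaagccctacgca
Rpl10: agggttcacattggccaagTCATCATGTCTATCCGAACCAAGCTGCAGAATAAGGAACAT

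A few probes may read something other than the messenger RNA of the protein they are named for, which was not tested. The files describe some as similar to another protein. Others, among them 1 probe each of Rpl37 and Rps15, lie on the strand opposite to the other probe of the same name. For Rpl37 the sense probe was 0.49 ± 0.09 higher in newborns than in old rats and the opposite one 0.37 lower, a difference of −0.37 ± 0.10 (limma, adjusted p = 0.0031), which is the 1 probe called lower in that comparison. For Rps15 both strands were called higher in newborns, by 0.31 and 0.63 over old rats. Without the probes described as another protein or lying on the opposite strand, 101 of 102 were called higher and 0 lower in newborns against adults, and 92 higher and 0 lower against old rats.

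Differences at several probes of one gene were set beside each other. In 20 genes with more than 1 probe on the sense strand, the differences of the probes of a gene lay within a median range of 0.08 for L1 minus old, 0.16 for newborn minus old, 0.465 for adult minus old and 0.49 for newborn minus adult. The range was smallest for L1 minus old, which also had the smallest median difference over the 108 probes. Those medians were 0.25, 0.47, −0.74 and 1.28 in the same order. The part of the scan day in these ranges was not tested. The probe nearest the end of the gene gave a higher adult minus old difference than the first probe in 15 of 20 genes, with medians of −0.56 and −1.01, and a larger range over the litters in 16 of 20, with medians of 0.56 and 0.29.

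Rpl13 shows how far 2 probes can part. The probe at chr19:53443404-53443463 read 9.14, 9.14, 9.36 and 9.38 in adults and 10.39, 10.43, 10.32 and 10.42 in old rats. The probe at chr19:53445000-53445059 read 8.79, 8.73, 8.37 and 8.60 in adults and 8.16, 8.19, 8.22 and 8.08 in old rats. The first was lower in adults by an adult minus old difference of −1.14 ± 0.09 and the other higher by 0.46 ± 0.14, both called. In L1 minus old they gave 0.25 and 0.20.

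Rpl17 behaved likewise over the litters. The last probe, at chr18:71939292-71939351, read 8.55, 8.53, 8.50 and 8.16 in L1 and at least 9.42 in every other pup, a range of 1.44 between litter means. The first probe, at chr18:71937968-71938027, read 9.86, 9.87, 9.98 and 9.81 in L1 and at least 10.01 in every other pup, a range of 0.30. Rpl5 had a range of 1.26 at its last probe 0.23 at its middle and 0.39 at its first probe.

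**Figure D4:**
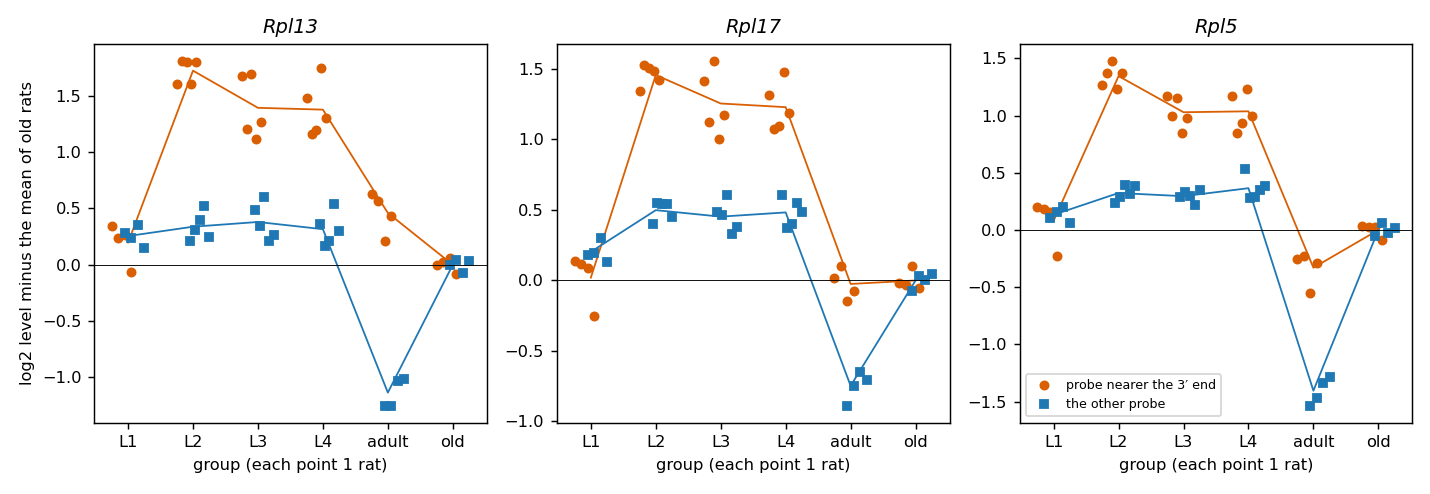
Levels of 2 probes each of Rpl13, Rpl17 and Rpl5 in each rat (points) by group, as log2 level minus the mean of the old rats at the same probe, for the probe nearer the 3′ end and another probe of the gene, with lines through the group means. The probe nearer the 3′ end has L1 near the old rats and the other litters higher, and its adults are nearer to or above the old rats.

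The probes with the widest range over litters included several that hold AATAAA, the signal that precedes the cut and poly(A) addition. These letters stood in 12 of the 108 probes, and their median range over litters was 0.59 against 0.32 for the other 96. The ranges ran from 0.13 to 2.17 with the letters and from 0.05 to 1.8 without. Probes of Rps7, Rpl35a, Rpl5 and Rpl22 had ranges above 1 and lacked the letters. The last 30 bases of 4 probes with the letters, chosen for a range above 1, are shown with the signal in capitals. They come from probes at chr19:53445000-53445059 and chr18:71939292-71939351 on the plus strand and chr14:110585972-110586031 and chr2:228133032-228133091 on the minus strand.
Rpl13: tggagagttgtAATAAAttttccataaagc
Rpl17: tcatggcacgggAATAAAttcagcataaat
Rps27a: gtgtatgagttAATAAAgagaaggaactga
Rpl34: cttttttaagtAATAAAaatcaagacttcg

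Rps27a, which is made as a fusion with ubiquitin, read 8.82, 8.63, 8.68 and 8.38 in L1 and at least 9.47 in every other pup, against 8.0, 8.08, 8.27 and 8.10 in old rats. Rpl34 read 1.44, 1.35, 1.14 and 1.12 in L1, at least 2.59 in every other pup and 1.37, 1.41, 1.28 and 1.02 in old rats. L1 thus overlapped the old rats at Rpl34 and not at Rps27a. The newborn minus old differences, 1.44 ± 0.10 and 1.36 ± 0.15, came with L1 minus old differences of 0.52 ± 0.13 and −0.01 ± 0.19. These SEs do not hold the spread between litters.

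The litters also differed from each other. Differences among litters were called for 50 of 108 probes, where 37.6% of all probes were called, and the median range between litter means was 0.32 against 0.45 over all probes. L1 was the lowest litter at 94 probes, and at 48 of the 50 called. The median of L1 minus the other litters was −0.26, from −1.82 to 0.42. A range above 1 was found for 8 probes, those of Rpl34, Rps7, Rpl13, Rps27a, Rpl17, Rpl35a, Rpl5 and Rpl22, or 7.41% against 10.3% of all probes. Without L1 the count called was 2, and the share of all probes called was 10.6%. L1 was scanned on another day than the other litters, so litter and day cannot be told apart.

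Base composition of the probe went with these differences. Across the 108 probes, Spearman's rho of the GC percent of the 60 bases was −0.43 with the range over litters, −0.49 with the adult minus old difference, −0.33 with newborn minus old and 0.37 with newborn minus adult. Over all probes tested the same values were −0.21, −0.44, −0.11 and 0.25. Probes share arrays and genes, so these are descriptions.

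**Figure D5:**
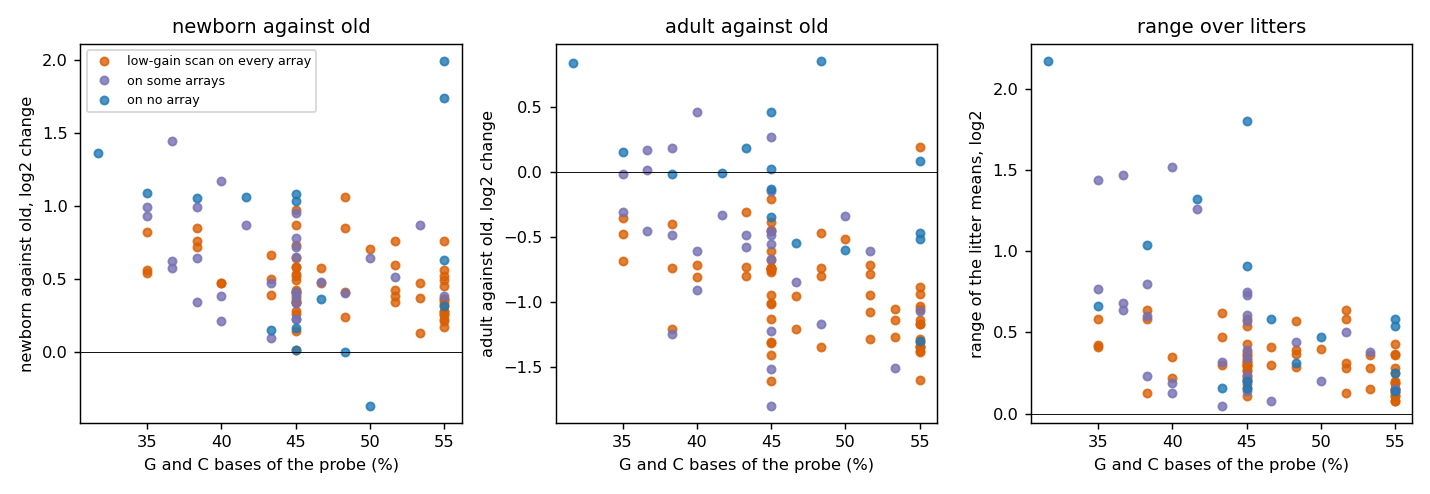
GC percent of each ribosomal protein probe (x axis) against its newborn minus old difference, its adult minus old difference and the range of its litter means (y axes, log2), coloured by whether it was read from the low-gain scan on every array, on some or on none. Adult minus old falls with GC percent (rho −0.49), and the ranges above 1 lie at 45% GC or below.

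The rest of the translation machinery gave the following counts, over lists of other genes, to be read against the 28.3% of all probes called higher and 31.4% called lower in newborns against old rats and the 17.8% and 30.5% in L1 against old. Translation factors were called higher in newborns against old rats at 22 of 34 genes and lower at 2, with a median of 0.39, and in L1 against old at 13 and 5. Ribosome assembly genes were higher at 24 of 31 and lower at 0, with a median of 0.55, and in L1 at 20 and 0. Mitochondrial ribosomal proteins, which build the separate ribosome of that organelle, were higher at 17 of 62 and lower at 6, a share called higher near that of all probes, with a median of 0.15, and in L1 against old they were higher at 2 and lower at 12. In adults against old rats these 3 lists were lower at 18, 15 and 45 genes and higher at 2, 4 and 2, where 31.9% of all probes were lower and 15.7% higher.

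Cell marker counts are read against the same shares of all probes. Markers of dividing cells were higher in newborns than in old rats at 19 of 20 genes, with summed levels over the array median of 807 to 1385 in newborns, 220 to 311 in adults and 186 to 215 in old rats. Immature olfactory neuron markers were higher in newborns than in old rats at 10 of 11, with sums of 2524 to 4678 against 1352 to 1704 in old rats and 1585 to 2005 in adults. Markers of mature olfactory neurons were lower at 8 of 9, with sums of 213 to 444 in newborns and 1407 to 1884 in old rats, and markers of sustentacular cells, the supporting cells, at 4 of 4, with sums of 807 to 2060 and 3970 to 4683. Globose basal cell markers were higher at 2 of 3.

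Of cells outside the epithelium, markers of red cells were higher in newborns than in old rats at 3 of 5 and lower at 1, those of bone and cartilage higher at 6 of 7 and lower at 1, those of macrophages higher at 2 of 8 and lower at 3, those of respiratory ciliated cells lower at 2 of 5, and those of T cells lower at 2 of 2. The 1 tested marker of B and plasma cells was not called. The part of these cell types in the ribosomal protein differences was not tested.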

How the data were processed

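Total RNA was amplified with T7 polymerase, labelled with Cy3 and hybridised to whole rat genome 60-mer arrays. Per the file headers, the deposited intensity values (gProcessedSignal) were background-subtracted by Agilent Feature Extraction (9.5.1.1 for adults, 9.5.3.1 otherwise). The authors' value table holds normalized ratios, and it served as an alternative. By the paper's methods, each array was scaled to its median and then each gene to its median over the arrays. Replicates were not pooled by the authors, and the number of arrays limits precision. Intensities were divided by the array median, floored at 0.01 and put on the log2 scale, spots of a probe were averaged, and the 2 arrays of a rat were averaged. Probes were tested if well above background on at least 3 arrays of each litter and 6 of 8 adult and old arrays. limma (3.58.1, R 4.3.3) was fitted to 6 groups with Benjamini-Hochberg adjustment. The p-values measure the spread between rats within these groups, and not the spread between litters. On data simulated for newborn against adult, 40% of 100 probes changed by 0.5 and 88% of 100 changed by 1 were called, and 1 of 23564 unchanged probes. The simulated data had no litter, slide or scan-day differences, and far fewer probes changed than the 66.3% called in the real data. These shares therefore do not give the power or the false calls of the comparisons above. The alternatives were other scalings, filters, blocks and left-out rats. Probes named were the 8 most changed per direction, a list of well-known members and paralogues, saturated probes and the 3 genes with the widest spread between probes. Others were chosen after their values were seen. Gene lists covered translation factors, ribosome assembly and cell markers. Members and lists were chosen with earlier results of these data known. Start windows were RefSeq sequences (GRCr8), matched by symbol, from 250 bases before to 50 after the start. Probe coordinates are in rn3. Some items are not reported here by name but stay in the counts.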

Additional observations from a re-analysis of the deposited data

Results flagged for a closer look

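In 9 of 276 groups of rats examined (3.26%), 1 rat lay far from the others of its group by Dixon's criterion, which chance alone exceeds in about 1 group in 20. Rpl10l was highest in rat 35 of L4, at 3.55 against 1.74 in the next rat. In L1, rat 9 was lowest for 1 Rpl10 probe, at 7.88 against 8.14, and rat 12 for Rpl13a, at 10.57 against 10.78, and for Rpl22, at 6.47 against 6.84. In L3, rat 30 was lowest for Rpl10a, at 9.57 against 9.88. Among old rats, Rpl15 was highest in rat 20, at 3.62 against 3.50, Rpl31 was lowest in rat 17, at 9.16 against 9.26, and Rps4x was lowest in rat 19, at 9.04 against 9.17. Among adults, Rpl8 was lowest in rat 15, at 10.27 against 10.35.

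Differences among the 4 litters were called for 50 of the 108 probes (46.3%), at an adjusted p under 0.01 from limma, where 37.6% of all probes were called. The median range between litter means was 0.32, against 0.45 over all probes.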

How the results depend on the processing

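Over the 135 results of single named probes, 6063 of 6207 values under alternatives kept their direction and side of the threshold, 96 lost the call, 33 gained it and 15 turned. Those that turned did so after quantile normalization, without or with normexp background correction. They were adult minus old for Rps21 (0.28, 0.32), Rpl22 (0.39, 0.54), Rps6 (0.12, 0.14), Rpl3 (0.08), Rps18 (0.01), Rps19 (0.09), Rps24 (0.13) and 1 Rps2 probe (0.08), newborn minus old for Rpl10 (−0.15), and newborn minus adult for Rpl36a (−0.16) and Rpl14 (−0.24, −0.29). Alternatives by scan gain, single strand or protein, and adult scan day were chosen after seeing the data.

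For newborn against adult, probes called higher were 62 of the 63 of the low-gain scan on every array and 12 of the 16 on none. Over all probes 40.0% were called higher. The median was 1.14 with 75th percentile scaling, 0.65 with quantile normalization, 0.59 with normexp as well, 1.46 for low-gain probes and 0.84 for the others. For newborn against old, probes called higher were 57 of 63 and 10 of 16 by gain, where 28.3% of all probes were. The median for the high-gain probes was 0.83.

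For adult against old, probes called higher were 20 and 21 with quantile and normexp, where 22.1% and 22.7% of all probes were. They were 1 with litter means (13.9% of all probes), 2 with the methods' t-test (9.07%) and 2 without the adults of scan day 2 (14.4%). With 1 probe per gene 1 of 73 was called higher, and 0 of 63 low-gain probes. Those called lower were 45 with quantile and 45 with normexp, where 23.6% and 23.3% of all probes were, and 3 of 16 high-gain probes. The median was −0.66 with the 75th percentile, −0.14 with quantile, −0.13 with normexp, −0.66 and −0.82 without the adults of scan day 2 and 1, −0.94 for low-gain and −0.02 for high-gain probes.

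For L1 against old, probes called higher were 83 with quantile, 84 with normexp and 29 with the slide block, where 22.9%, 21.9% and 13.6% of all probes were. They were 29 of 73 with 1 probe per gene, 29 of 63 low-gain and 6 of 16 high-gain probes, where 17.8% of all probes were. The median was 0.31 with the 75th percentile, 0.35 with quantile and 0.36 with normexp. Among litters, 30 were called with the slide block, where 19.3% of all probes were. By subset 30 of 73 were called with 1 probe per gene, 25 of 63 low-gain and 7 of 16 high-gain probes, where 37.6% of all probes were. The median range was 0.21 with the 75th percentile, 0.19 with quantile, 0.21 with normexp and 0.56 for high-gain probes.

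With each rat or litter left out in turn, newborn against adult gave 102 to 103 called higher and medians of 1.24 to 1.35, newborn against old 86 to 96 and 0.44 to 0.53, adult against old 79 to 86 lower, 3 to 4 higher and −0.76 to −0.70, L1 against old 28 to 46, and the litters 2 to 57 called with a median range of 0.08 to 0.36. The cause of these shifts was not tested. No paired analysis was possible because no rat number is shared between groups.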
